A study of Mus musculus with 6 samples.

Results

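Chromatin accessibility was compared directly between severe and moderate hypoxia in GL261 cells, a mouse glioma line, here stably expressing pEGFP-N1, a plasmid for green fluorescent protein. The comparison used 4 of the 6 ATACseq libraries of the study, 2 from cells kept for 16 h at <0.1% O2 and 2 from cells kept for 16 h at 1% O2, both in a hypoxic chamber with 5% CO2, and the 2 libraries from cells at 21% O2 were read only beside them. All cells carried the plasmid, were grown in DMEM with serum, and were fixed with formaldehyde before transposition. Everything comes from 1 cell line, and since no source used here says whether replicates were separate cultures, the p-values below measure only the spread between these libraries, which may be technical. The peak lists held 42807 and 41783 peaks at 1% O2 and 43554 and 39348 at <0.1% O2. Stretches called in both replicates of at least 1 hypoxia level made 40692 peaks, of which 33572 were called in all 4 libraries and could be ranked, 1053 were called in both <0.1% libraries and neither 1% library, 1413 were called in both 1% libraries and neither <0.1% library, and 4654 were missing from 1 library. No peak was picked by its level, although the genes and peaks named below were.

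In ATACseq the Tn5 transposase inserts adapters into open DNA, so that the number of fragments over a site follows how accessible it is. Start sites of most active genes lie in nucleosome-poor, GC-rich promoters, while distal open sites often hold letters bound by factors such as AP-1 (the Fos and Jun family, which responds to stress and growth signals) or TEAD (the DNA-binding partners of YAP and TAZ in the Hippo pathway). Low oxygen stabilises HIF, whose subunits bind short hypoxia response elements, and oxygen close to zero also slows oxygen-dependent enzymes and sets off replication stress and the unfolded protein response.

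The 200 bases around the summits of 7 peaks are printed first, to show what the letters counted below look like: distal peaks higher or called only at <0.1% O2 that hold AP-1 or TEAD letters, GC-rich promoter peaks that stood lower, and a GC-rich promoter peak that stood higher. They were picked as examples after their values and letters were seen. Of the 5 distal peaks that rose most, 3 held AP-1 or TEAD letters, and those near Lpar6 and Gm3880 held neither. All are from the plus strand of GRCm38.p6 (mm10), and none overlaps an annotated exon. Capitals mark the letters searched, on either strand: TGANTCA for AP-1, GGAATG for TEAD, ACGTG and GCGTG for 2 forms of the hypoxia response element, and GGGCGG for the GC box that Sp1 and related factors bind. The first is a peak whose nearest start site is that of Nkain2, at chr10:32984950-32985149, higher at <0.1% O2, with AP-1 letters at 2 places and TEAD letters between them. The next pair, near Kcnh7 at chr2:62928617-62928816 and near Iyd at chr10:3476713-3476912, was called only at <0.1% O2, and in the Iyd window the TEAD and AP-1 letters overlap. The peak upstream of Ccn2 (connective tissue growth factor, a known target of YAP and TEAD), at chr10:24573639-24573838, was higher. The promoter peak of Cyp1a1, at chr9:57696477-57696676, was higher, at 67.5% G and C. The promoter peaks of Phc1 at chr6:122339702-122339901 and Arfgef1 at chr1:10232999-10233198 were lower, and their windows were 86.5% and 80.0% G and C, against 46.5% in the Nkain2 window.
Nkain2: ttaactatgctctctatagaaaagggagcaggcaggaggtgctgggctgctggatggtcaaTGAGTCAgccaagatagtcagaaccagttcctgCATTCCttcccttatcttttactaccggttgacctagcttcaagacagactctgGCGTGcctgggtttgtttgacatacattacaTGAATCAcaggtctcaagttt
Kcnh7: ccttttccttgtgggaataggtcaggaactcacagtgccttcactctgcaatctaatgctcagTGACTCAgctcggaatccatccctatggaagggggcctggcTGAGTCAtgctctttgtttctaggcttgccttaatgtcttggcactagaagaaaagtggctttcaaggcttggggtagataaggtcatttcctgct
Iyd: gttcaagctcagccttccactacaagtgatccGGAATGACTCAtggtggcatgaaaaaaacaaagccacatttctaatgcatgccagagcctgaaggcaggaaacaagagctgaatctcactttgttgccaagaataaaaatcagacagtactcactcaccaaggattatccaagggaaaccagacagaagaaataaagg
Ccn2: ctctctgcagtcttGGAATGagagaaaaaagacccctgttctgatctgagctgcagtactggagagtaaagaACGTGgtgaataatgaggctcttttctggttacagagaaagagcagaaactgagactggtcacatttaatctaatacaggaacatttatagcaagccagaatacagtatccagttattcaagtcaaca
Cyp1a1: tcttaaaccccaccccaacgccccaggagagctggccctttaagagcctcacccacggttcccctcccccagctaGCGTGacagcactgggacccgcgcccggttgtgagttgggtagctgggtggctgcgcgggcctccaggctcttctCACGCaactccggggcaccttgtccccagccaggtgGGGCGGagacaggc
Phc1: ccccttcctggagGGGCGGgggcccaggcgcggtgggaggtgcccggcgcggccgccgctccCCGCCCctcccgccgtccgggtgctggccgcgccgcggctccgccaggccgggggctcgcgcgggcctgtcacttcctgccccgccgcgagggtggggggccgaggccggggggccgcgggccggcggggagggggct
Arfgef1: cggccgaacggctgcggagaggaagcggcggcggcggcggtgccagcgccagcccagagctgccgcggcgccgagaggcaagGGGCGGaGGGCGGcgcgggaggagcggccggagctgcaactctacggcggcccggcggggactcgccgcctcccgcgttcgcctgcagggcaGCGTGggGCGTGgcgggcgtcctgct
A run of letters is a description of the window and says nothing of whether a factor was bound there.

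The fold and the pileup of each peak were compared. The fold is the authors' enrichment of the summit over the local background, and the pileup is the number of fragments over the summit, worked back from the fold and the p-value of the same line. Because the libraries differ in depth, each reading was turned into a percentile rank (0 lowest, 100 highest) among the 33572 peaks within its library, and a peak was counted as lower or higher at <0.1% O2 where both <0.1% libraries lay beyond both 1% libraries and the means differed by at least 10 percentile points. By fold, 4976 peaks (14.8%) were lower and 5000 (14.9%) higher. By pileup, 4145 (12.3%) were lower and 4235 (12.6%) higher, and both readings met the rule for 2656 lower (7.91%) and 2423 higher (7.22%) peaks. The readings met the rule in opposite directions in few peaks: 10 were lower by fold and higher by pileup, and 4 the reverse. Opposite changes of under 10 points are not counted there. Ranks are relative within a library, so near equal numbers up and down are partly built into them.

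A test on the log2 pileups after quantile normalisation (limma, Benjamini-Hochberg adjusted p under 0.05 and a log2 change of at least 0.6 in size) called 1211 peaks lower (3.61%) and 1569 higher (4.67%) at <0.1% O2. Of the lower calls 95.9% also met the pileup rank rule, as did 97.1% of the higher calls. Both rest on the same pileups, so that overlap is partly built in. The fold rank rule was met by 84.7% of the lower and 77.3% of the higher calls. Conversely, limma called 28.0% of the peaks lower by pileup rank and 36.0% of those higher. The balance rests on the scaling: scaled by each library's genome coverage instead, the median log2 change of all ranked peaks was -0.27, and 5516 peaks were lower and 386 higher, so that 93.5% of calls were lower in place of 43.6%. All changes below are therefore relative to the other peaks of the same library. Depth moved with the groups: the genome coverage was 2.93 and 2.99 fragments at 1% O2 and 3.35 and 3.18 at <0.1% O2, while the median pileup of the ranked peaks divided by that coverage was 31.4 and 27.7 at 1% O2 and 25.7 and 22.3 at <0.1% O2. Among the alternatives the recovered pileups were thinned to the lowest coverage, with values not given here. The part of depth in the reads themselves was not tested.

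Promoter peaks, those within 2000 bp of a start site, stood lower at <0.1% O2, and peaks elsewhere stood higher. Of 13711 ranked promoter peaks, limma called 842 lower (6.14%) and 155 higher (1.13%). Start sites of any annotated gene counted here, coding or not. The higher promoter peaks lay a median of 8010 bp from the nearest start site of a protein-coding gene, the lower ones 84.5 bp. Of 19861 outside promoters it called 369 lower (1.86%) and 1414 higher (7.12%). Promoters made 40.8% of all ranked peaks, 69.5% of the lower calls and 9.88% of the higher ones. The same held by rank: 20.6% of promoter peaks were lower by pileup and 3.92% higher, against 6.66% and 18.6% outside promoters. By fold the shares were 20.3% and 8.37% in promoters and 11.1% and 19.4% outside.

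Over all promoter peaks the median pileup rank fell by 3.25 points and that of the other peaks rose by 2.15, a difference of -5.40 points. The same difference between replicates of 1 level was 0.596 points at 1% O2 and -0.791 at <0.1% O2. By fold the difference was -3.48 points, against -0.325 and -1.11 between replicates. Promoter peaks had a mean pileup rank of 63.0 ± 0.50 (SD, n = 2) in the 1% libraries and 59.0 ± 0.37 (SD, n = 2) in the <0.1% libraries, with no overlap between the libraries. An exact permutation test of 2 libraries against 2, two-sided, can give no p below 0.33, which is what it gave.

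The shift followed the distance to the start sites of protein-coding genes. Within 500 bp, 721 of 9949 peaks (7.25%) were lower and 5 (0.05%) higher. Between 500 and 2000 bp the numbers were 60 and 51 of 1513. Between 2 and 10 kb 100 of 4484 were lower and 228 higher, between 10 and 50 kb 187 of 10060 were lower and 655 higher, and beyond 50 kb 143 of 7566 (1.89%) were lower and 630 (8.33%) higher. Away from promoters, introns had 7.87% of peaks higher, intergenic sequence 6.67% and exons 5.61%.

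**Figure D1:**
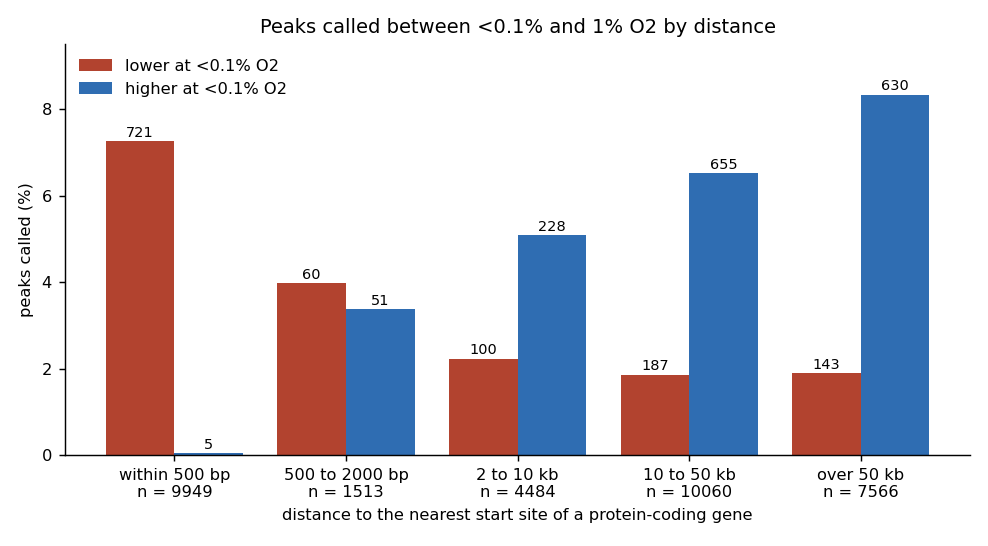
Percent of ranked peaks called lower (red) or higher (blue) at <0.1% O2 by limma, by distance from the summit to the nearest start site of a protein-coding gene; numbers above bars are peaks called and n is the number of ranked peaks. Lower calls fall from 7.25% within 500 bp to 1.89% beyond 50 kb and higher calls rise from 0.05% to 8.33%.

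The GC content of the peaks moved with the change in the same way. In the decile of ranked peaks with the lowest GC content (31.6 to 43.4%) the median log2 change was 0.32, and 18.4% of peaks were higher and 0.179% lower. In the decile with the highest (64.6 to 82.5%) it was -0.33, and 14.8% were lower. Inside 1 such decile, promoter peaks and other peaks had like values: medians of 0.28 and 0.32 at the lowest GC content and -0.33 and -0.31 at the highest. The promoter median was the lower in every decile, such as 0.06 against 0.11 from 48.0 to 50.0% GC. Across all ranked peaks, which share libraries and are not independent, the correlation of the log2 change with GC content was -0.569, while that of the difference between replicates was 0.172 at 1% O2 and -0.050 at <0.1% O2.

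**Figure D2:**
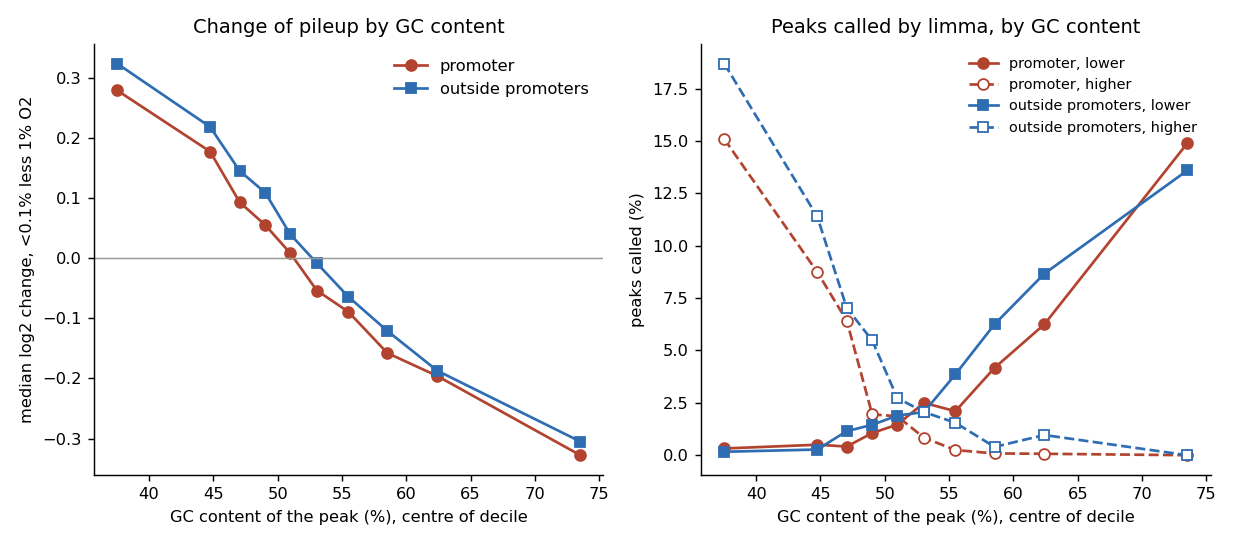
Left, median log2 change of the pileup (<0.1% less 1% O2, quantile-normalised) in deciles of ranked peaks by GC content, for promoter peaks (red circles) and others (blue squares); right, percent of peaks called lower (solid) or higher (dashed) by limma. Both kinds of peak go from about 0.3 at the lowest GC content to about -0.3 at the highest.

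Promoters are themselves GC-rich, with a median of 59.2% over all ranked promoter peaks and 48.8% outside promoters. The called groups ranged further, from 65.7% in the lower and 45.7% in the higher promoter peaks to 54.2% and 44.5% outside, so the calls were repeated with GC content taken out. Subtracting from each library its own median trend over 20 GC bins left 613 peaks lower and 668 higher, of which 200 lower and 102 higher lay in promoters and 413 and 566 outside. Of the original calls, 390 lower (32.2%) and 597 higher (38.0%) remained. Among those called originally, the median log2 change went from -0.70 to -0.51 for the lower peaks and from 0.73 to 0.54 for the higher ones. The difference in rank change between promoters and other peaks depended on the form of the correction. When the GC trend of the rank change itself was subtracted, it was -0.666 points by fold and -0.504 by pileup, with -0.192 and -0.255 (fold) and -0.381 and -0.386 (pileup) between replicates. When each library's own GC trend was subtracted first, a form chosen after seeing the data, it turned to 2.08 and 1.21 points, with -0.082 and 0.807 (fold) and -0.419 and -0.206 (pileup) between replicates. So a lower position of promoters as a class was present in the values as deposited and had no settled sign once GC content was taken out.

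The named peaks are those with the largest changes of pileup rank, 12 promoter and 5 other peaks in each direction among those that met both rank rules, chosen for their size, so that their values describe them. All 12 promoter peaks that fell most had both <0.1% pileups below both 1% pileups, limma called all 12, and all 12 stayed called under both forms of the GC correction. Their GC content ran from 61.6 to 74.3% and their log2 changes from -1.38 to -0.99. Amigo1, a cell adhesion protein first known from neurons, had pileups of 85 and 61 fragments at 1% O2 and 24 and 27 at <0.1% O2 (log2 change -1.38, SE 0.21, limma adjusted p = 1.49e-07). Trim39, a RING-type E3 ubiquitin ligase, had 147 and 128 at 1% O2 and 61 and 50 at <0.1% O2 (-1.15, SE 0.15, limma adjusted p = 3.06e-09). In both genes the <0.1% libraries held fewer fragments than either 1% library.

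Among the others, Cpsf2, a subunit of the complex that cleaves pre-mRNA before polyadenylation, had 127 and 105 fragments at 1% O2 and 60 and 43 at <0.1% O2 (log2 change -1.03, SE 0.16, limma adjusted p = 3.89e-07). Prpf39, a splicing factor of the U1 particle, had 90 and 84 against 45 and 34, and Phc1, a Polycomb protein whose GC boxes are printed above, 109 and 103 against 52 and 42. Arfgef1, which loads GTP on Arf proteins of the Golgi, had 80 and 66 fragments at 1% O2 and 27 to 37 at <0.1% O2. Tsnax, the partner of translin, had 116 and 93 fragments against 55 and 35. The peak of Tspan5, a tetraspanin, had 128 and 60 against 36 and 34, with a summit at the edge of the shared stretch and 1% replicates that lay far apart. Tapt1, Nckipsd, the promoter that Egfl7 shares with Gm20532 and that of Ccdc122 and Lacc1 complete the 12.

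The promoter peaks that rose most were less uniform. Limma called 9 of the 12, before and after GC correction, and in 10 both <0.1% pileups lay above both 1% pileups. The promoter shared by Coil, which encodes coilin of the Cajal bodies, and Elobl had 64 and 61 fragments at 1% O2 and 197 and 147 at <0.1% O2 (log2 change 1.57, SE 0.14, limma adjusted p = 3.1e-16). Cyp1a1, an enzyme that oxidises foreign compounds and a classic target of the aryl hydrocarbon receptor, had 75 and 64 at 1% O2 and 131 and 98 at <0.1% O2 (0.86, SE 0.15, adjusted p = 3.93e-06). Fam71f1 had 79 and 62 against 164 and 126, Mbnl2, a splicing regulator, 41 and 40 against 90 and 60, and Tbc1d30, a Rab GTPase-activating protein, 111 and 93 against 201 and 162. The other called members were 1600014C23Rik, Tdrd7, the mucin gene Muc5ac and the RNA-binding Samd4.

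In 3 of these promoters 1 library decided the value. In each the tallest summit lay at or beyond the edge of the shared stretch, while 9 of the 12 had their summits inside it. Slc39a13, a zinc transporter, had 73 and 63 fragments at 1% O2 and 314 and 63 at <0.1% O2, Cald1 had 37 and 35 against 165 and 44, and the promoter of Fhod1 and Slc9a5 had 77 and 68 against 75 and 227. The replicates at <0.1% O2 differed more than the levels did, and the limma adjusted p was 0.518, 0.397 and 0.55.

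**Figure D3:**
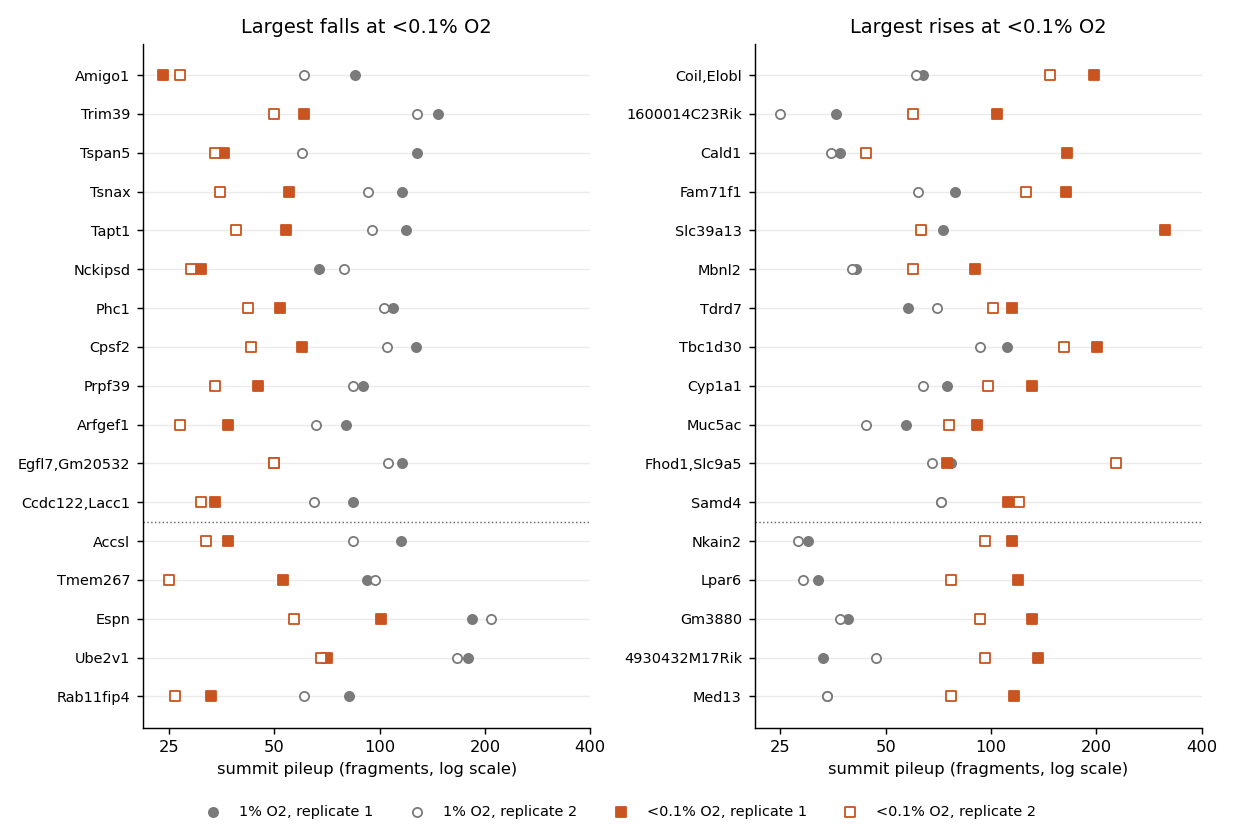
Pileup at the summit (fragments, log scale) in each of the 4 libraries for the peaks with the largest falls (left) and rises (right) of pileup rank; above the dotted line are 12 promoter peaks, below it 5 peaks outside promoters with the nearest gene. Grey circles are 1% O2 and orange squares <0.1% O2; on the left every orange square lies below both circles, and on the right Slc39a13, Cald1 and Fhod1 show 1 high <0.1% library.

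Outside promoters the largest rise was that of the intergenic peak near Nkain2, at chr10:32984684-32985504, with 30 and 28 fragments at 1% O2 and 115 and 96 at <0.1% O2 (log2 change 1.94, SE 0.18, limma adjusted p = 4.3e-15), against 26 and 30 at 21% O2. An intronic peak in Med13, a part of the Mediator kinase module, had 34 and 34 against 116 and 77, and 18 and 25 at 21% O2. For both, the 1% libraries stood near the 21% libraries. The intronic peak nearest to Lpar6, a lysophosphatidic acid receptor, had 32 and 29 fragments at 1% O2 and 119 and 77 at <0.1% O2, but 70 and 81 at 21% O2, so that 1% O2 was the lowest of the 3 levels. Gm3880 (39 and 37 against 131 and 93, with 62 and 77 at 21% O2) and 4930432M17Rik (33 and 47 against 136 and 96, with 61 and 69) followed the same order. The largest falls were near Accsl (115 and 84 against 37 and 32), in an intron of Ube2v1, a ubiquitin-conjugating enzyme variant (179 and 167 against 71 and 68), in an exon of the actin-bundling gene Espn (184 and 208 against 101 and 57), in Tmem267 (92 and 97 against 53 and 25) and in Rab11fip4 (82 and 61 against 33 and 26). All 10 were called by limma before and after both GC corrections.

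The peaks called at 1 level only made 2.59% of the 40692 peaks for <0.1% O2 and 3.47% for 1% O2. Both counts rose with 1 library left out, and which was the larger depended on the library, as given at the end. Those only at <0.1% O2 were mostly distal: 490 were intergenic, 407 intronic and 115 (10.9%, 95% exact Clopper-Pearson interval 9.10 to 13.0%) in promoters. Of those only at 1% O2, 463 were intergenic, 519 intronic and 318 (22.5%, 20.4 to 24.8%) in promoters, against 36.8% of all peaks. Such intervals cover counting error only. Their median GC content was 45.2% at <0.1% O2 and 52.6% at 1% O2. They were narrow and low, with median widths of 292 and 271 bp against 644 bp for all peaks, and median pileups of 29 and 25 fragments (<0.1% only) and 30 and 28 (1% only). A library at 21% O2 also held 301 (28.6%) of the <0.1% peaks and 651 (46.1%) of the 1% peaks.

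Of the tallest peaks called only at <0.1% O2, those of Cnn2 (181 and 140 fragments), an actin-binding calponin, Nfia (196 and 138), a glial transcription factor, and Rab1a (168 and 136), a GTPase of vesicle transport, had their summits inside the stretch. The stretches at Ddit4, an inhibitor of mTOR induced by stress (162 and 422), Zkscan5 (152 and 415) and the phosphatase gene Dusp1 (279 and 132) were shoulders of broader peaks whose summits lay outside them. Among those with the highest fold, picked after their values were seen, were Kcnh7, a potassium channel (64 and 59), and Iyd, which recycles iodide (55 and 51), both printed above. The tallest only at 1% O2 included Gas7 (193 and 156), Marcks (167 and 138), a substrate of protein kinase C, Myo10 (156 and 135) and Ppargc1b (127 and 133), a coactivator of mitochondrial genes; Arsj (60 and 61), Eaf2 (57 and 62) and Rybp, a Polycomb protein (56 and 51), had among the highest folds there. With summits required inside the stretch, 974 and 1307 peaks remained.

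The letters under the summits differed between the groups of peaks, as shares of windows of 200 bp that hold them. AP-1 letters (TGANTCA) stood in 38.3% of the peaks higher outside promoters and 11.7% of those lower there, against 31.5% of those not called there and 22.0% of all ranked peaks. They stood in 34.7% of the peaks called only at <0.1% O2 and 15% of those only at 1% O2. TEAD letters (GGAATG) stood in 31.1% of the higher and 11.1% of the lower peaks outside promoters, 14.2% of those not called, 22.9% of the <0.1%-only and 9.27% of the 1%-only peaks. The GC box (GGGCGG) went the other way, with 68.4% of lower promoter peaks, 51.7% of promoter peaks not called and 5.81% of higher promoter peaks. As measured 8.05% of promoter peaks with the GC box and 4.06% of those without were lower, but with each library's GC trend subtracted 1.17% and 1.77%.

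Letters of the hypoxia response element were, as measured, more frequent in lower than in higher peaks, most for the GC-rich form. At matched GC content the order of ACGTG outside promoters was the other way, over few lower peaks. Outside promoters ACGTG stood in 9.62% of higher and 11.9% of lower peaks, against 10.5% of those not called. In promoters it stood in 9.68% of higher, 17.2% of lower and 18.3% of uncalled peaks. GCGTG, which is itself GC-rich, stood in 46.3% of lower promoter peaks, 40% of those not called and 12.3% of higher ones, and outside promoters in 17.9% of lower, 15.8% of uncalled and 9.34% of higher peaks. Of the peaks called at 1 level only, 9.21% (<0.1% O2) and 16.9% (1% O2) held it. In windows of 40 to 50% G and C these shares were 8.28% and 9.95%, and outside promoters ACGTG stood in 9.68% of 981 higher and 7.58% of 66 lower peaks (95% exact interval 2.51 to 16.8%), GCGTG in 8.97% and 15.2% (7.51 to 26.1%), so that the lower shares there are loose. After GC correction 1.4% of promoter peaks with GCGTG and 1.5% of those without were lower. The composite letters of ATF4 (TGATGNAA), a factor of the integrated stress response, stood in 6.84% of the <0.1%-only and 1.63% of the 1%-only peaks, and core letters of the insulator factor CTCF (CCACNAGG) in 5.03% and 11.3%. In windows of 40 to 50% G and C the shares were 6.63% and 2.84% for ATF4 and 4.07% and 8.06% for CTCF.

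Since the letters differ in GC content, they were also counted in windows of 40 to 50% G and C. There TEAD letters stood in 29.3% of the higher peaks outside promoters and 15.4% of those not called, while AP-1 letters stood in 39.1% and 36.3%. In the same band, AP-1 letters stood in 37.2% of the <0.1%-only and 19.2% of the 1%-only peaks, and TEAD letters in 22.6% and 9.95%. Read the other way, outside promoters 5.07% of 11536 peaks with neither set of letters were higher, 7.38% of 5270 with AP-1 letters alone, 14.0% of 2047 with TEAD letters alone and 15.2% of 1008 with both. With each library's GC trend subtracted the shares were 2.25, 2.14, 6.84 and 5.26%, and the median log2 change was -0.03 with neither and 0.05 with AP-1 letters alone. In promoters, AP-1 letters stood in 46.5% of higher, 1.78% of lower and 8.11% of uncalled peaks, and in windows of 40 to 50% G and C in 51.4% of higher and 25% of uncalled peaks. Most of those higher promoter peaks lay far from start sites of protein-coding genes, at a median of 8010 bp. After GC correction 3.22% of promoter peaks with AP-1 letters and 0.524% of those without were higher.

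**Figure D4:**
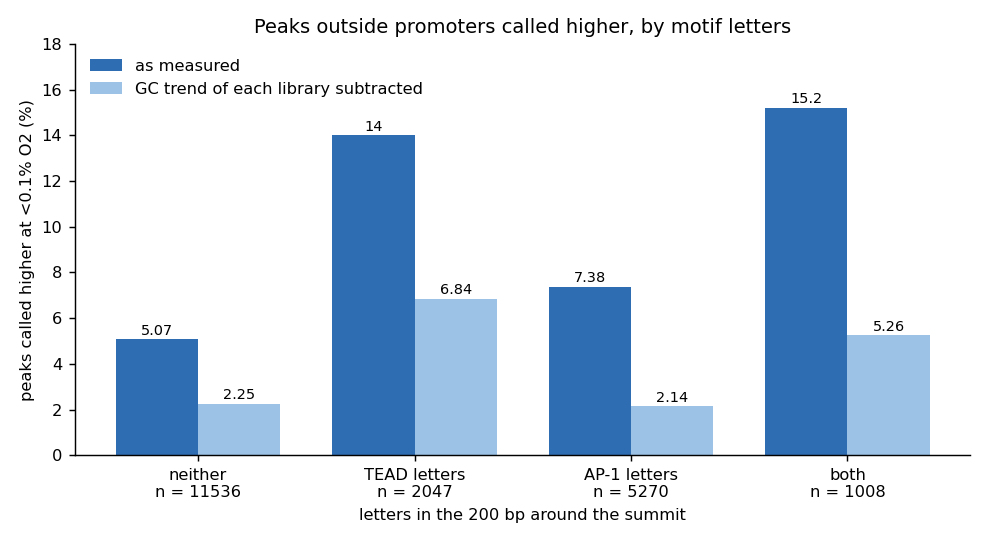
Percent of ranked peaks outside promoters called higher at <0.1% O2 by limma, by whether the 200 bp around the summit hold TEAD letters (GGAATG), AP-1 letters (TGANTCA), both or neither; dark bars as measured, light bars with each library's GC trend subtracted. Bars with TEAD letters are the taller in both. With the trend subtracted, 2.14% of peaks with AP-1 letters alone and 2.25% of those with neither were higher.

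The 1414 higher peaks outside promoters were also counted by nearest gene. Of 8316 genes that were the nearest to a ranked peak outside promoters, 1177 had at least 1 higher peak and 7, picked after their values were seen, had 4 or more, 36 peaks in all. The 369 lower peaks, far fewer, lay near 352 genes. Irs2, an adaptor of insulin signalling, had 7 higher of 12 peaks, and the one that rose most, at chr8:10921406-10922160, had 60 and 96 fragments at 1% O2 and 222 and 172 at <0.1% O2. Col11a1, a fibrillar collagen, had 5 of 7, among them peaks with 90 and 85 against 196 and 186 fragments and with 65 and 76 against 166 and 139. Ccn2 had 4 of 9, and the upstream peak printed above had 39 and 38 against 92 and 64. Its promoter peak also stood higher, with 88 and 96 fragments at 1% O2 and 151 and 130 at <0.1% O2 (log2 change 0.78). Ntm, a neuronal adhesion gene, had 6 of 14, Cited2, a HIF-induced inhibitor of HIF, 6 of 20, Myc 4 of 13 and Sox5 4 of 21.

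The other promoters at these loci differed among themselves. That of Col11a1 had a log2 change of 0.24 (limma adjusted p = 0.0134), 0.36 after GC correction, both under the size limit. The promoter peak of Sox5 was called lower (63 and 48 against 32 and 34 fragments), and that of Cited2 had a log2 change of -0.48 (236 and 203 against 150 and 130). Under the GC correction 5 of the 7 peaks near Irs2 stayed called, 3 of 5 near Col11a1, 2 of 6 near Ntm and 2 of 4 near Sox5, 1 each near Cited2 and Ccn2, and 2 or 1 near Myc by the form of the correction. Nearest says nothing of which gene a peak acts on, and the farthest higher peak counted for Cited2 lay at -1215398 bp from its start site, upstream being negative.

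Gene lists were read at the promoter peak of each gene. Of 11843 protein-coding genes with a ranked promoter peak, limma called 783 lower (6.61%) and 43 higher (0.363%), both rank rules were met lower by 1726 (14.6%) and higher by 106 (0.895%), and the median log2 change was -0.18. With each library's GC trend subtracted it was 0.003, and 1.28% were lower and 0.321% higher. At an unadjusted p under 0.05 limma had 38.9% lower and 3.50% higher, and scaled by coverage the median was -0.47. Changes of a list are read against these values.

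Genes of glucose uptake and glycolysis, which HIF induces, had 1 of 23 lower, Gbe1, the glycogen branching enzyme (332 and 266 fragments at 1% O2 against 171 and 152, log2 change -0.73), and a median of -0.11. After GC correction Gbe1 was no longer called and the median was 0.10. Slc2a1, the glucose transporter, had 411 and 337 fragments at 1% O2 and 299 and 259 at <0.1% O2, a log2 change of -0.33 (SE 0.081, limma adjusted p = 0.0010) that stayed under the size limit and was 0.045 after GC correction. Vegfa, the angiogenic growth factor, had 104 and 85 against 97 and 79 (0.066, adjusted p = 0.79), and its libraries overlapped. Among other HIF targets and oxygen sensors 2 of 22 were lower. These were Egln1, the prolyl hydroxylase that marks HIF for decay (136 and 117 against 61 and 70 fragments), and Vhl, which then binds HIF for degradation (160 and 137 against 77 and 87), both with no overlap between levels. After GC correction neither was called. Plod2, a collagen lysyl hydroxylase that HIF induces, met both rank rules with 192 and 150 against 112 and 102 fragments, and Eno2, an enolase, with 88 and 48 against 49 and 42, where the raw numbers of the levels overlapped and the ranks did not. With the GC trend subtracted their rank changes were -7.33 and -7.77 points, under the limit of 10, and the log2 changes -0.18 and -0.17. That of Eno2, with a limma adjusted p of 0.128 as measured, rested on 1% replicate 1, without which its rank change was -1.09 points.

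The unfolded protein and integrated stress response list had a median of -0.03, with none of its 34 genes called by limma in either direction (6 lower, 17.6%, and 2 higher, 5.88%, at an unadjusted p under 0.05). Psat1, a serine synthesis enzyme that ATF4 induces, had 172 and 167 fragments at 1% O2 and 220 and 210 at <0.1% O2, a log2 change of 0.50 that was 0.62 and called higher with each library's GC trend subtracted, though not with the trend of deviations. Asns, the asparagine synthetase that ATF4 also induces, went the other way with 118 and 89 against 73 and 63, as did Pdia6, a disulfide isomerase of the endoplasmic reticulum, with 152 and 141 against 100 and 97. Each met both rank rules, but Pdia6 changed by -6.95 points with the GC trend subtracted, and the log2 changes of Asns and Pdia6 were then -0.36 and -0.16, neither past the limma threshold. The list's median was 0.13 after GC correction. As measured 22 of its 34 genes (64.7%) lay below 0, against 77.3% of all coding genes. After GC correction 6 (17.6%) did, against 49.6%. The AP-1 family, whose letters are described above, had a median of -0.13 over 11 genes (5 lower, 45.5%, and 1 higher, 9.09%, at an unadjusted p under 0.05, none of them past the limits of limma used here). After GC correction its median was 0.12.

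Splicing factors had 3 of 56 lower and a median of -0.24: Srsf11 (125 and 111 against 68 and 57), Srsf10 (165 and 147 against 106 and 69) and Hnrnpu (232 and 207 against 135 and 116). Their share, 5.36%, lay below that of all coding genes, while both rank rules were met lower by 11 (19.6%, against 14.6%). None of the 3 stayed called after GC correction, and the median was then 0.02. The helicases and related factors that the study took up for R-loops, RNA-DNA hybrids, had all 12 log2 changes below 0 and a median of -0.38. Of all coding genes 77.3% lay below 0. Limma called 3: Ddx18 (150 and 125 against 83 and 60), Dhx15 (251 and 227 against 152 and 121) and Ddx1 (68 and 54 against 40 and 33). Since the study chose that list on these samples, it is not independent evidence of its direction. Dhx9, which unwinds R-loops, had 154 and 142 fragments against 90 and 88, a change of -0.55 (SE 0.14, adjusted p = 0.0011) under the size limit, and -0.32 (limma adjusted p = 0.094) after GC correction. Ddx5 had 351 and 332 against 278 and 252 (-0.25, SE 0.083, adjusted p = 0.018), but its fold rank rose by 4.45 points while its pileup rank fell by 2.93. With each library's GC trend subtracted Ddx5 had a log2 change of 0.05 (limma adjusted p = 0.74), and with the GC trend of the rank change subtracted its pileup rank turned to 3.11 points. After GC correction the list's median was -0.22 and 1 gene, Ddx18, stayed called. Then 8 of the 12 genes (66.7%) lay below 0, against 49.6% of all coding genes.

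In protein synthesis and respiration the shares called lower as measured lay at or below the background of 6.61%. Cytosolic ribosomal proteins had 4 of 81 lower (4.94%: Rpl36, Rpsa, Rpl22l1 and Rpl5), with a median of -0.25, mitochondrial ribosomal proteins 5 of 76 (6.58%: Mrpl53, Mrpl44, Mrpl15, Mrps10 and Mrps2), with -0.19, and nuclear genes of the respiratory chain 3 of 80 (3.75%), among them Atp5e of the ATP synthase (182 and 211 fragments against 105 and 98) and Atp5a1 of the same complex (119 and 92 against 54 and 43). Both rank rules, with a background of 14.6%, were met lower by 26.3% of the mitochondrial ribosomal genes (20), 16.0% of the cytosolic and 8.75% of the respiratory chain genes. After GC correction 3 mitochondrial and 2 cytosolic ribosomal genes and 1 of the respiratory chain, Atp5a1 and not Atp5e, stayed called (3.95, 2.47 and 1.25%, against 1.28% of all coding genes). Ribosomal protein genes have many pseudogene copies, and whether these affect the reads at their promoters was not tested.

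In DNA replication 1 of 44 was lower, Orc3 of the origin recognition complex (145 and 136 against 94 and 64), also after GC correction, in homologous recombination and the Fanconi anemia pathway 1 of 37, Fancf, and among p53 and its targets 1 of 18, Mdm2, the ubiquitin ligase of p53 (217 and 217 against 133 and 115). After GC correction Fancf and Mdm2 were no longer called. Below the limits of limma but by both rank rules, Brca2 stood lower with 45 and 52 against 31 and 32 fragments, Rbbp8, which starts DNA end resection, with 179 and 162 against 126 and 95, and the replication kinase gene Cdc7 with 172 and 150 against 101 and 91. With the GC trend subtracted Brca2 and Rbbp8 changed by -7.82 and -8.14 points, under the limit of 10, and Cdc7 by -12.2. Of the oxygen-dependent demethylases 2 of 19 were lower, Kdm3b and Kdm2b (143 and 137 against 88 and 70), and neither stayed called after GC correction. Zinc finger proteins had 17 of 291 lower, such as Zfp236 (144 and 113 against 57 and 63) and Zfp507 (134 and 100 against 67 and 47), and 2 higher, Zfp609 (82 and 62 against 127 and 89) and Zfp316 (55 and 43 against 86 and 62). Shares of the zinc finger list, 5.84% and 0.687%, stand beside a background of 6.61% and 0.363%. After GC correction 12 of the 291 (4.12%) were lower, against 1.28% of all coding genes, and both higher calls were lost. Replication-dependent histones, 57 genes that share 33 peaks, had a median of 0.06, and -0.24 when scaled by coverage, where all coding genes had -0.47. Neither they nor the mitosis, sterol synthesis, interferon and glial lists had a gene called by limma, and 0, 4, 10, 1 and 3 of their genes were lower and 5, 1, 0, 1 and 1 higher at an unadjusted p under 0.05. Beside the 38.9% of all coding genes, the lower shares were 16.7% for mitosis, 34.5% for sterol synthesis, 5.26% for interferon and 21.4% for glial genes. The higher shares were 8.77% for histones, 4.17% for mitosis, 5.26% for interferon and 7.14% for glial genes, beside 3.5% of all coding genes.

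**Figure D5:**
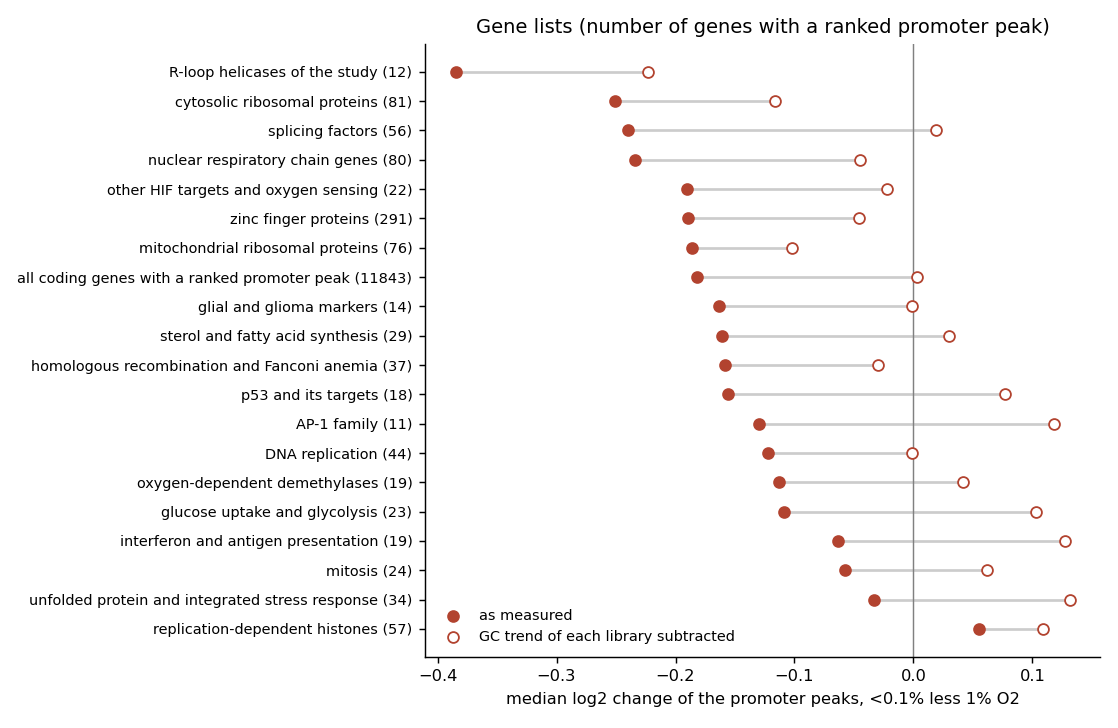
Median log2 change of the promoter peaks of the gene lists (the immune, neuron and endothelial marker lists, with 1 to 3 genes, are not drawn; <0.1% less 1% O2), with the number of genes with a ranked promoter peak in brackets; filled circles as measured, open circles with each library's GC trend subtracted. Filled circles run from -0.38 (R-loop helicases of the study) to 0.06 (histones), around -0.18 for all coding genes, and every open circle drawn lies to the right of its filled one.

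After GC correction the medians of the lists not yet given were -0.02 for other HIF targets, -0.03 for homologous recombination, -0.12 and -0.10 for cytosolic and mitochondrial ribosomal proteins, -0.05 for the respiratory chain, 0.08 for p53 and its targets, 0.04 for the demethylases, -0.05 for zinc finger proteins, 0.11 for histones, 0.06 for mitosis, 0.03 for sterol synthesis and 0.13 for interferon genes. They were -0.0009 for DNA replication and -0.001 for glial and glioma markers. The small immune, neuron and endothelial marker lists are left out.

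Promoters of glial and glioma markers were open in these cells, 14 of 18 in all 4 hypoxia libraries, though those of Sox9 and Egfr were called in none. Of the markers of other cell types, 1 of 9 for immune cells (Csf1r), 3 of 7 for neurons (Syn1, Syt1 and Slc17a7) and 1 of 6 for endothelium (Pecam1) had a promoter peak in all 4. Of these, limma called Syt1 lower (78 and 68 fragments at 1% O2 against 51 and 34 at <0.1% O2), but not after GC correction.

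Beside the 21% libraries, among 28498 peaks called in all 6, the lower promoter peaks had a median pileup rank of 51.1 at 21% O2, 45.7 at 1% O2 and 22.1 at <0.1% O2, and in 88.5% of 818 the 21% rank lay closer to that at 1% O2 than to that at <0.1% O2. The higher peaks outside promoters were split: their medians were 36.1, 27.1 and 54.7, and 52.5% of 1119 had a 21% value closer to that at 1% O2. The 303 lower peaks outside promoters had medians of 22.3, 24.0 and 8.65, with 63.7% closer to 1% O2, and the 122 higher promoter peaks 37.8, 30.5 and 58.4. These groups were chosen on the 2 hypoxia levels, so their order between those is fixed by the choice.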

How the data were processed

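ATACseq reads were, per the study's methods and the submitters' notes, trimmed (Trimmomatic), aligned to mm10 with Bowtie2 2.2.5, freed of duplicates (Picard) and of poorly mapped reads, and peaks were called in each library separately by the authors with MACS2 2.1.1.2 at a q of 0.001, without a control library; blacklisted regions were removed. The deposited peak lists give for each peak the fold enrichment at the summit, a ratio to the local background and beside it −log10 of the p-value and of the q-value, all from the authors' calls. Read counts were not used here, so the count model the study names could not be run.

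The number of fragments over each summit (pileup) was worked back from the fold and −log10 p, which gave whole numbers within 0.05 fragments for every peak; the smallest background of a library gave its genome coverage. Stretches of over 200 bp shared by both replicates of a level were merged into 1 set of peaks, annotated with GENCODE M21 basic (promoter, within 2000 bp of a start site) and GRCm38.p6. A peak was present in a library that overlapped it by at least 1 bp. Ranks were taken within a library over peaks present in all 4 libraries. limma 3.58.1 (R 4.3.3; trend and robust) was fitted to quantile-normalised log2(pileup + 1) values over all ranked peaks, with Benjamini-Hochberg adjustment, an adjusted p below 0.05 and a log2 change of at least 0.6; on that scale changes of low peaks are understated. Other steps used Python 3.11.15 with numpy 2.4.6, pandas 2.3.3, scipy 1.17.1 and pysam 0.24.0. Both steps were tested on simulated data.

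Peaks were named by rule: the 12 promoter and 5 other peaks with the largest fall and rise of pileup rank among those both rank rules called, the 6 tallest present at 1 level only, up to 2 members of each gene list in each direction, and 4 genes the study names. Others are said to have been picked after their values were seen, and further list members are those limma called. The comparison, gene lists and motifs were chosen with earlier results of these data known. Alternatives covered the reading ranked, the size of change, promoter window, scaling, pileups thinned to the lowest coverage, GC content, a replicate block and each library left out. An item is not reported here.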

Additional observations from a re-analysis of the deposited data

How the results depend on the processing

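With 1 library left out, peaks called only at <0.1% O2 numbered 1878 to 4104 (4104 without <0.1% replicate 2, 1878 without 1% replicate 2) and those only at 1% O2 2151 to 3719 (3719 without 1% replicate 2), since fewer libraries then had to hold or lack a peak. Asking for 20 percentile points left 1641 lower and 1306 higher peaks by fold and 564 and 856 by pileup. The promoter difference by fold was -5.62 points with −log10 q ranked, -5.40 with pileup ranked, -4.21 with a promoter window of 500 bp and -3.87 to -2.69 with 1 library left out; by pileup it was -3.48 with fold ranked, -5.96 with the window of 500 bp, -4.89 with ranks within the whole list and -6.17 to -4.95 with 1 left out. Subtracting the GC trend of the rank change gave -0.666 and -0.504, and subtracting each library's own GC trend, added after seeing the data, reversed it to 2.08 and 1.21; the cause was not tested. Peaks higher in pileup rank were then 2547 and 2590. In limma, lower and higher calls were 613 and 668 with each library's GC trend subtracted, 658 and 639 with that of its deviations (added after seeing the data), 5516 and 386 scaled by genome coverage and 4244 and 4237 with no minimum change. With 1 library left out they were 866 to 1407 and 1389 to 1774. Replicate numbers are shared by the groups, and no source used here says whether libraries of equal number were handled together. Replicate differences of the 2 levels correlated by 0.028 (fold) and 0.016 (pileup), so no shared replicate effect was seen in them. The replicate block gave 1197 and 1556 limma calls, 5311 and 5358 by fold and 4199 and 4290 by pileup; with the GC trend subtracted as well it gave 648 and 701 in limma and 2585 higher by pileup. Of the 72 named peaks with ranks, 69 met both rank rules, and a change of at least 10 points remained in 60 with the GC trend of the rank change subtracted and in 64 with whole-list ranks. With 2 libraries a level, a peak under the calling threshold in 1 library may be present below it, and the lists limit the depth to what the caller kept.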
